A study of Mus musculus with 6 samples.

Results

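Tight junctions were examined through 10 genes of ileal mucosa, from the end of the small intestine: the claudins Cldn2, Cldn3, Cldn4, Cldn7, Cldn15 and Cldn23, and Ocln, Tjp1, Marveld2 and F11r. They are 10 of the 18193 genes that the array's annotation names singly, and all 16 probe sets carrying exactly one of these symbols were taken. All mice were females of the 129S6 strain, aged 3 months. One group was wild type (wt) and the other duoxa-/-, without the maturation factors through which dual oxidases reach the cell surface and release hydrogen peroxide. Littermates of both genotypes shared 3 cages, each cage gave 1 wt and 1 duoxa-/- sample, and each sample was a pool of RNA from 2 to 3 animals, so that single animals cannot be seen. The comparison asks how expression in the ileum differs between duoxa-/- mice and wt mice of the same cage.

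Tight junctions seal the space between epithelial cells near their apical side and set which ions and molecules pass between the cells. Claudins span the membrane and bind claudins of the neighbouring cell. Some of them form channels for small cations and water and others tighten the seal, while scaffold proteins on the inner side tie the strands to actin. In the small intestine the claudin channels let sodium return to the lumen, where it serves the uptake of sugars and amino acids.

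None of the 10 genes passed the test between the genotypes, and neither did the targeted Duoxa2, whose values are given below. Of their 16 probe sets 0 passed in limma (adjusted p from 0.794 to 0.994), as did 0.0% of all 45037 probe sets, and 1 of the 16 had an unadjusted p under 0.05, against 5.98% of all probe sets. Values are on the log2 scale of RMA, a summary of the probes of a set, and each gene is given by its main probe set, the one with the highest mean over the 6 arrays. The 10 main probe sets had means of 10.06 to 13.99, above the median of all probe sets (6.58), and differences between the genotypes of at most 0.17. Their median difference, duoxa-/- minus wt, was -0.008, against -0.012 over all genes, and the median size of the difference was 0.048, against 0.083 over all genes. In all 3 cages Cldn15 and Cldn3 were lower in the duoxa-/- pool, 2 of 10 genes against 16.6% of all genes, and F11r was higher in all 3, 1 of 10 against 13.5%. These shares lie near those of the array as a whole.

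The arrays had medians of 6.55 to 6.60 and any 2 of them had r between 0.994 and 0.998 over the probe sets, and their number limits the precision of every value. Duoxa2, one of the targeted factors, read 8.81, 8.36 and 7.24 in the wt pools of cages 1, 2 and 3 and 5.90, 5.55 and 5.92 in the duoxa-/- pools. The groups did not overlap and the difference was -2.34 (SE 0.33), 5.08-fold lower, yet it did not pass in limma (adjusted p = 0.794), so that a missed threshold in this design does not show that a gene was unchanged. Duoxa1, the other maturation factor, read 6.41, 6.26 and 6.25 in wt pools and 6.22, 5.92 and 6.33 in duoxa-/- pools, below the median of all probe sets. Its groups overlapped, its duoxa-/- pool was higher in cage 3 by 0.08, and its difference was -0.15 (SE 0.12). The sources used here do not say whether either probe set lies inside the deleted part. All 10 markers of epithelium lay above the median level, and their mean differed little between pools, from 12.93 to 13.00 in wt and from 12.94 to 12.97 in duoxa-/- pools. Other markers moved more. The mean of 10 villus enterocyte genes differed by -0.53, -0.38 and 0.03 in cages 1, 2 and 3. All 10 were lower on average in duoxa-/- pools, and 9 of them lay at or above the median level. The mean of 12 smooth muscle genes differed by -0.72, 0.17 and -0.12 in the 3 cages, and all 12 were likewise lower on average. The wt pool of cage 1 was highest at 11.93 and the others lay between 11.21 and 11.57. The T cell mean differed by 0.36, -0.44 and -0.19, and the mean of 11 crypt and proliferation genes by 0.16, 0.07 and 0.09. Goblet cell means differed by -0.13, 0.28 and 0.12, Paneth cell means by -0.13, 0.18 and -0.18, B and plasma cell means by 0.49, -0.06 and -0.10, and macrophage and dendritic cell means by 0.01, -0.02 and -0.10. In such bulk tissue fewer cells of a type and less RNA per cell cannot be told apart, and the part of these cells in the values below was not tested.

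**Figure D1:**
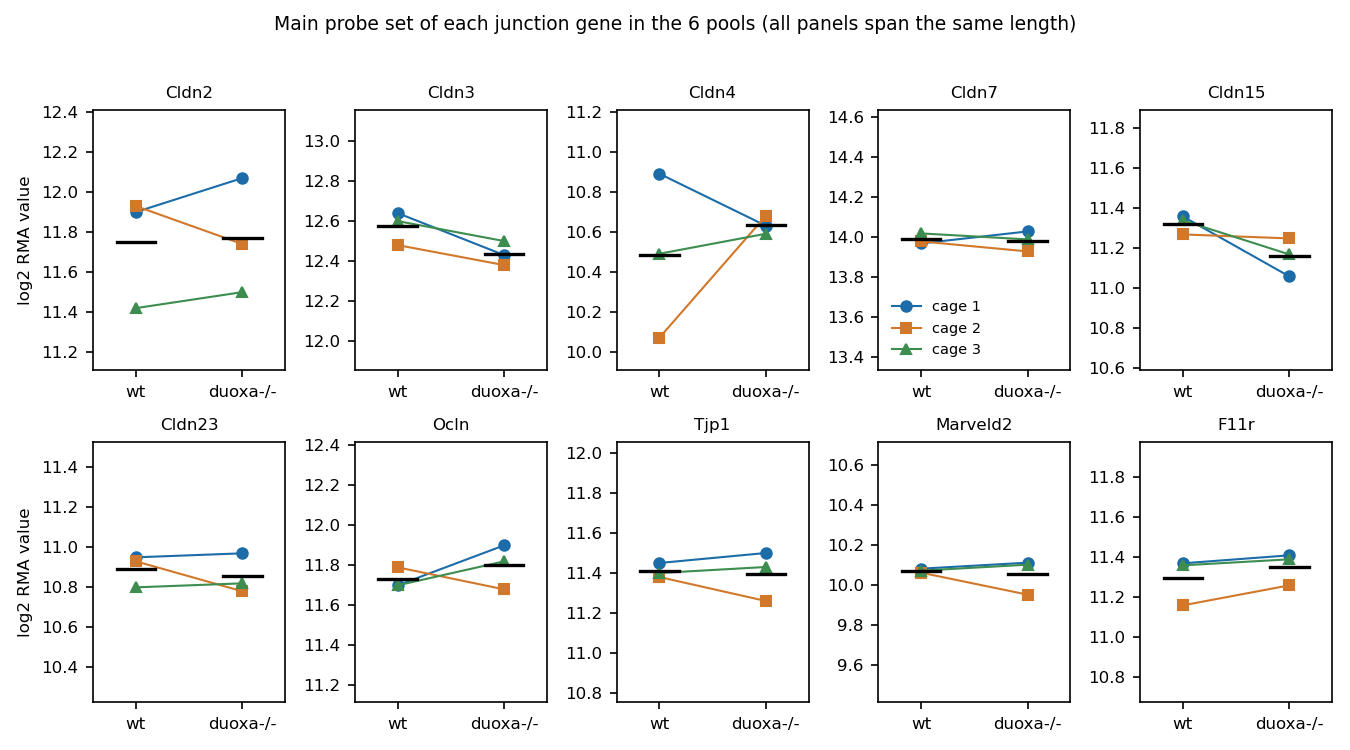
Log2 RMA values of the main probe set of the 10 junction genes (vertical axis, each panel spanning the same length) in wt and duoxa-/- pools (horizontal axis). Points of a cage are joined, and black bars are means of 3 pools. Lines of Cldn3 and Cldn15 go down in all 3 cages, those of Cldn4 cross, and Cldn7 is nearly flat.

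The promoters of 3 claudins on chromosome 5 are shown because Cldn3 and Cldn15 had the same direction in every cage while Cldn4, whose coding gene neighbours Cldn3, did not. Each sequence is the 250 bases before the annotated start, from RefSeq on GRCm38.p6, and the capitals mark matches to TGANTCA, the element bound by AP-1 transcription factors. The windows are chr5:134985964-134986213 on the plus strand for Cldn3, chr5:134946935-134947184 on the minus strand for Cldn4, and chr5:136967619-136967868 on the plus strand for Cldn15.

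Cldn3: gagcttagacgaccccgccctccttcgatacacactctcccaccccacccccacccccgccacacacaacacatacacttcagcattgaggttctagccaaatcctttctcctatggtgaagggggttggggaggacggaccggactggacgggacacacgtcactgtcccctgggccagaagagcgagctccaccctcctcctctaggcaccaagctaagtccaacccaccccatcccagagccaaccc

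Cldn4: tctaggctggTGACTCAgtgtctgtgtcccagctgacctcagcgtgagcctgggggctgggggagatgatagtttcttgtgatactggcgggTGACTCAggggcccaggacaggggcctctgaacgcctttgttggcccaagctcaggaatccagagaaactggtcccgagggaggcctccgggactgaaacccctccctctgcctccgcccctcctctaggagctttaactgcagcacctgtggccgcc

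Cldn15: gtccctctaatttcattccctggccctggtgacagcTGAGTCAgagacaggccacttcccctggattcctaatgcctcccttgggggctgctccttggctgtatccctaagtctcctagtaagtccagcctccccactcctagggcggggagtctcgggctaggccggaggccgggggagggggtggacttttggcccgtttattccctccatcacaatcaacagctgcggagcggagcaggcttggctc

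Cldn4 held 2 matches to TGANTCA, 240 and 158 bases before the start, Cldn15 held 1 match, 214 bases before it, and Cldn3 held 0. Both strands were searched. Among the 9 of 10 genes with an entry (Cldn23 had none), F11r also held 1 such match, 109 bases before its start, so that 3 of the 12 windows of these 9 genes had one, against 6.75% of all 32851 promoter windows of that length. The shorter element CAGGTG, bound by Snail factors, stood in windows of Cldn4, Cldn7, F11r and Ocln, 4 of the 12 windows against 17.2% of all windows. GGGCGG, bound by SP and KLF factors, stood in 10 of the 12 windows, against 32.7% of all, and in each of the 9 genes but Cldn2. Windows of the same gene can overlap, and the 2 of Marveld2 hold the same GGGCGG site. Counted by gene, GGGCGG stood in 8 of the 9, against 35.4% of 27025 genes, TGANTCA in 3, against 7.82%, and CAGGTG in 4, against 19.4%. AGATAA, read by factors of the GATA family, TTTATNG, read by CDX factors, and AACCNGTT, read by Grainyhead-like factors, stood in 0 of the 12, against 9.99%, 9.81% and 1.79% of all windows. No matches of different elements overlapped. Windows of the genes held 50.4% to 69.2% G and C, against a median of 52.4% over all windows. A match describes the letters of these windows and is no measure of binding.

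Among the channel-forming claudins, Cldn15 was lower in duoxa-/- pools without passing the test, and the 2 probe sets of Cldn2 differed from each other. Cldn15, which forms a cation channel throughout the small intestinal epithelium, read 11.36, 11.27 and 11.34 in the wt pools of cages 1, 2 and 3 and 11.06, 11.25 and 11.17 in the duoxa-/- pools. Every duoxa-/- pool lay below every wt pool, which held for 1 of the 10 genes in this direction and for 6.46% of all genes. In the other direction it held for 0 of the 10 main probe sets and for 5.08% of all genes. The pools of cage 2 all but met, and the gap was widest in cage 1. The difference was -0.17 (SE 0.08, 95% interval -0.36 to 0.03, adjusted p = 0.794), 1.12-fold lower, and the interval reaches from 1.28-fold lower to 1.02-fold higher. The cage differences were -0.31, -0.02 and -0.17. Those of the villus enterocyte mean were -0.53, -0.38 and 0.03, and those of the smooth muscle mean were -0.72, 0.17 and -0.12. Whether Cldn15 is linked to either set of markers was not tested. The value stayed below 0 when any 1 pool was left out, between -0.211 and -0.115.

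Cldn2 forms a channel for cations and water and is found mainly in the crypts. Its main probe set, 1417231_at, read 11.90, 11.93 and 11.42 in wt pools and 12.07, 11.74 and 11.50 in duoxa-/- pools. Both pools of cage 3 lay below the 4 pools of the other cages, and within cages the genotypes differed in both directions. The difference was 0.02 (SE 0.18, 95% interval -0.38 to 0.42, adjusted p = 0.985), which allows up to 1.30-fold lower and 1.34-fold higher. Its sign turned when cage 3 lost its wt pool (-0.146) or cage 1 its duoxa-/- pool (-0.128).

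The other Cldn2 probe set, 1417232_at, read 8.70, 8.09 and 8.66 in wt pools and 8.93, 9.07 and 8.97 in duoxa-/- pools. Every duoxa-/- pool lay above every wt pool, as for 6.25% of all probe sets. The difference was 0.51 (SE 0.16, 95% interval 0.16 to 0.86, unadjusted p = 0.00982), 1.42-fold higher, and it did not pass (adjusted p = 0.794). It was 0.24, 0.99 and 0.31 in cages 1, 2 and 3, and without the wt pool of cage 2, the lowest of the 6, it was 0.314. Across the 6 arrays the 2 Cldn2 probe sets had r = -0.21, given as a description. In cage 3 the first probe set had its lowest values and the second did not. Which part of the Cldn2 transcript each one reads is not stated in the labels or files, and the size of the Cldn2 difference depends on the probe set.

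**Figure D2:**
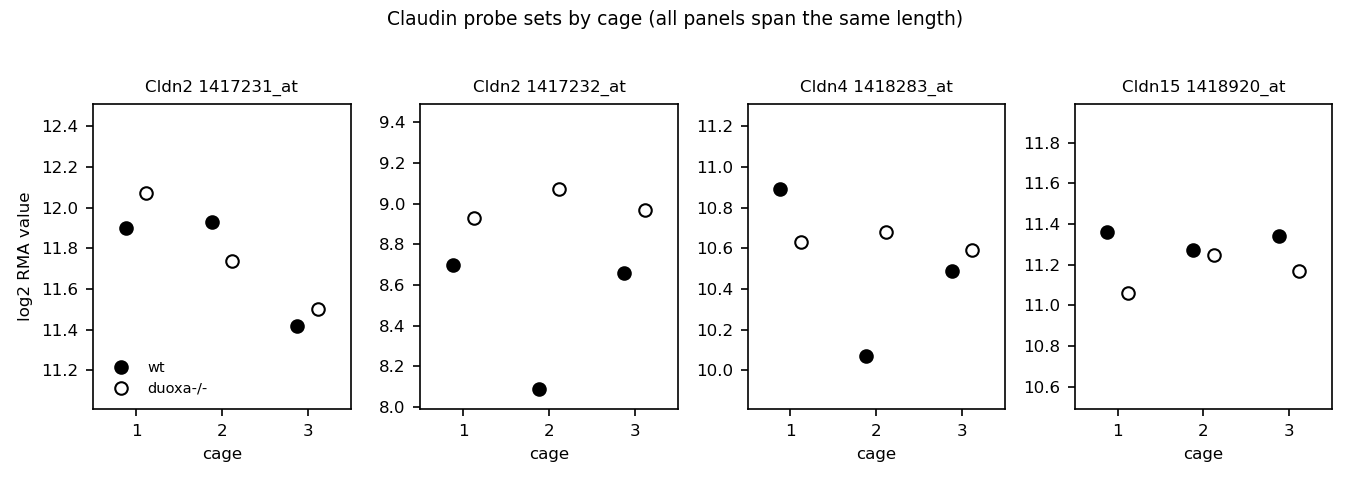
Log2 RMA values (vertical axis) of both Cldn2 probe sets, Cldn4 and Cldn15 by cage (horizontal axis), with wt pools filled and duoxa-/- pools open. The main Cldn2 probe set is lowest in cage 3 in both genotypes, while the other Cldn2 probe set and Cldn4 have their lowest value in the wt pool of cage 2, at 8.09 and 10.07.

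Among the claudins known mainly as seals, Cldn3 was slightly lower in duoxa-/- pools, Cldn4 varied most and Cldn7 hardly varied. Cldn3 is a barrier-forming claudin of the intestinal epithelium, and its main probe set 1460569_x_at read 12.64, 12.48 and 12.60 in wt pools and 12.43, 12.38 and 12.50 in duoxa-/- pools. The duoxa-/- pool was lower in each cage, but the highest duoxa-/- pool, of cage 3, lay above the lowest wt pool, of cage 2. The difference was -0.14 (SE 0.08, 95% interval -0.33 to 0.05, adjusted p = 0.796), 1.10-fold lower. It lay between -0.188 and -0.104 when any 1 pool was left out. All 4 Cldn3 probe sets were lower on average, by differences of -0.09 to -0.15, and they correlated with each other with r of 0.78 to 0.98 over the 6 arrays. They read the same gene, so they are no independent support, and all 4 are of kinds (_a_at and _x_at) that can read more than 1 transcript. One of them, 1426332_a_at, was higher in the duoxa-/- pool of cage 2, by 0.05.

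Cldn4, whose amount changes with the state of the epithelium, read 10.89, 10.07 and 10.49 in wt pools and 10.63, 10.68 and 10.59 in duoxa-/- pools. The wt pools spread over 0.41 (SD, n = 3) and held both the highest and the lowest value, while the duoxa-/- pools lay close together (SD 0.04, n = 3). The difference of 0.15 (SE 0.18, 95% interval -0.25 to 0.55, adjusted p = 0.866) averaged cage values of -0.25, 0.61 and 0.11. Without the wt pool of cage 2 it was -0.049. The wt pools of cages 1 and 2 also had the lowest and the highest mean of the T cell markers, 7.19 and 7.71 against 7.27 to 7.55 in the other pools. Not all of these markers shared that order. Cd3e and Cd4 read 7.81 and 7.45 in the wt pool of cage 1 and 7.71 and 7.35 in that of cage 2. The other measured ones were lower in cage 1, but Tcra among them had a mean of 3.71, below the median of all probe sets. Whether Cldn4 and these markers are linked was not tested.

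Cldn7, which also binds the adhesion protein EPCAM at the lateral membrane, read 13.97, 13.98 and 14.02 in wt pools and 14.03, 13.93 and 13.99 in duoxa-/- pools. The 6 pools spanned 0.09, and of the 3659 genes with a mean of 10 or more only 3.1% spanned less. Most of those genes lie lower than Cldn7, as their median level was 11.03. Nearer its level, Ctnnb1 (mean 13.91) spanned 0.05 and Atp1b1 (14.02) 0.07, while Jchain (14.08) spanned 0.18 and Spint2 (13.97) 0.21. A narrow span is thus not particular to Cldn7, and whether the array reads differences in full at such levels was not tested. The difference was -0.004 (SE 0.08), and its 95% interval, -0.18 to 0.17, leaves out a change beyond 1.13-fold lower or 1.12-fold higher.

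Cldn23, a claudin of differentiated intestinal epithelium, read 10.95, 10.93 and 10.80 in wt pools and 10.97, 10.78 and 10.82 in duoxa-/- pools. The groups overlapped and the cage differences of 0.02, -0.15 and 0.01 had both signs. The difference was -0.04 (SE 0.09, 95% interval -0.24 to 0.16, adjusted p = 0.938). When cage 1 lost its duoxa-/- pool the value was -0.096, and when cage 2 did it was close to 0.

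**Figure D3:**
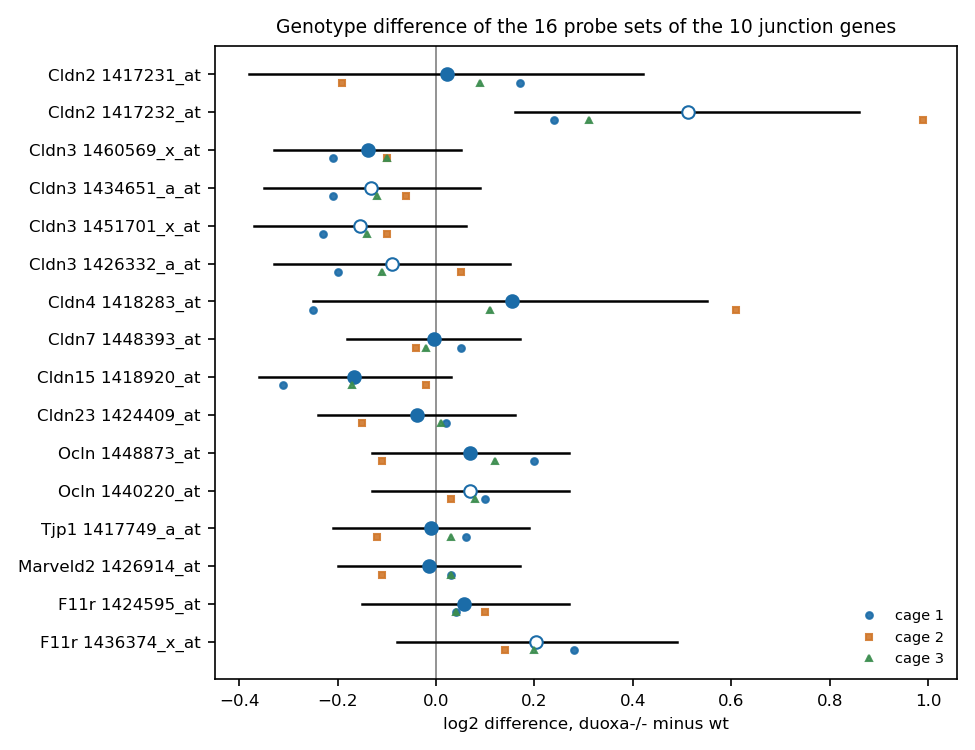
Log2 difference, duoxa-/- minus wt, of the 16 probe sets (horizontal axis) with 95% intervals from limma. Large points are the fitted differences, filled for the main probe set of a gene and open for its others, and small points are the 3 cages. The interval of 1417232_at (Cldn2), 0.16 to 0.86, is the one that leaves out 0, and it did not pass after adjustment.

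The other membrane proteins, Ocln, Marveld2 and F11r, and the scaffold Tjp1 differed by at most 0.07 between the genotypes. Ocln encodes occludin, a strand protein of the MARVEL family, and its main probe set 1448873_at read 11.70, 11.79 and 11.70 in wt pools and 11.90, 11.68 and 11.82 in duoxa-/- pools. The duoxa-/- pool was higher in cages 1 and 3 and lower in cage 2, and the difference was 0.07 (SE 0.09, 95% interval -0.13 to 0.27, adjusted p = 0.880). The other Ocln probe set, 1440220_at, gave the same mean difference of 0.07, with 0.10, 0.03 and 0.08 in the 3 cages. Over the 6 arrays the 2 probe sets had r = 0.56.

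Marveld2 encodes tricellulin, the MARVEL protein of the corners where 3 cells meet. It read 10.08, 10.06 and 10.07 in wt pools, which lay within 0.01 (SD, n = 3), and 10.11, 9.95 and 10.10 in duoxa-/- pools. The duoxa-/- pool of cage 2 was the lowest and the other 5 pools lay together. The difference was -0.01 (SE 0.08, 95% interval -0.20 to 0.17).

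Tjp1 encodes ZO-1, the scaffold that ties claudins and occludin to actin, and read 11.45, 11.38 and 11.40 in wt pools and 11.50, 11.26 and 11.43 in duoxa-/- pools. Again the duoxa-/- pool of cage 2 was the lowest. The difference was -0.01 (SE 0.09, 95% interval -0.21 to 0.19), which allows up to 1.16-fold lower and 1.14-fold higher. Without the duoxa-/- pool of cage 2 the differences of Cldn7, Marveld2 and Tjp1 were 0.022, 0.038 and 0.057, all turned in sign, and that of Tjp1 was also 0.008 without the wt pool of cage 1, that of Cldn7 0.011 without the wt pool of cage 3.

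F11r encodes JAM-A, an immunoglobulin-like adhesion protein of epithelium that endothelium and leukocytes also carry. Its main probe set 1424595_at read 11.37, 11.16 and 11.36 in wt pools and 11.41, 11.26 and 11.39 in duoxa-/- pools. Each duoxa-/- pool was slightly higher than the wt pool of its cage, by 0.04, 0.10 and 0.04, and both pools of cage 2 were the lowest. The difference was 0.06 (SE 0.09, 95% interval -0.15 to 0.27, adjusted p = 0.909), and -0.01 without the wt pool of cage 2. The other F11r probe set, 1436374_x_at, had a mean of 6.04, below the median of all probe sets, and differed by 0.20 (SE 0.13, adjusted p = 0.796).

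Between cages, 0 of the 16 probe sets passed the moderated F-test of limma, in a fit that also held the genotype, against 0.00222% of all probe sets (1 probe set). An unadjusted p under 0.05 was reached by 2 of the 16, the main Cldn2 probe set (unadjusted p = 0.0098, adjusted p = 0.877) and the dim F11r probe set (unadjusted p = 0.0282, adjusted p = 0.882), against 5.55% of all probe sets. The cage means of the main Cldn2 probe set were 11.99, 11.84 and 11.46 in cages 1, 2 and 3, a range of 0.53. Those of Cldn4 were 10.76, 10.38 and 10.54, and those of Cldn15 were 11.21, 11.26 and 11.25, a range of 0.05. For 7 of the 10 genes the range of the cage means exceeded the size of the genotype difference, as for 74.8% of all genes. Cldn3, Cldn15 and Ocln were the others, and Ocln's genotype difference of 0.07 and cage range of 0.07 were nearly equal.

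Pool by pool, Tjp1, Marveld2 and Cldn7 followed a like course. Tjp1 and Marveld2 had r = 0.95 over the 6 arrays, Cldn7 and Marveld2 r = 0.85, and Cldn7 and Tjp1 r = 0.81. Ocln had r of 0.61 to 0.68 and F11r 0.58 to 0.65 with these 3 genes, and Cldn23 had r = 0.70 with Tjp1. Cldn15 ran opposite to Ocln (r = -0.87), and Cldn2 ran with Cldn23 (r = 0.84). The neighbouring genes Cldn3 and Cldn4 had r = 0.22, and Ocln and Marveld2, neighbours on chromosome 13, r = 0.66. These values describe 6 arrays that share litters and were normalised together, and the 3 genes named first spanned 0.24 or less. Searched over 11607 genes at or above the median level, the gene most like Cldn2 was Wnk1 (r = 0.995), that for Cldn3 was Galm (0.993), for Cldn4 Fam241a (0.990), for Cldn7 Mfge8 (0.972), for Cldn15 Slc2a4 (0.989) and for Cldn23 Macf1 (0.988). For Ocln it was Anapc5 (0.991), for Tjp1 Siglecg (0.988), for Marveld2 Otud1 (0.981) and for F11r Cxadr (0.970). Each of the 10 had 3 or more genes above an r of 0.95, since 6 points allow many close matches.

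The other claudins were mostly dim in the ileum. Of 17 further claudins 14 had a probe set, and 4 of these, Cldn12, Cldn8, Cldn5 and Cldn22, lay at or above the median level. Their differences were balanced, with 7 higher and 7 lower (median 0.005), and 0 passed. Cldn5, the claudin of endothelium, had the smallest unadjusted p. It read 6.98, 6.82 and 6.84 in wt pools and 7.10, 7.08 and 7.30 in duoxa-/- pools, a difference of 0.28 (SE 0.09, adjusted p = 0.794) with no overlap between the groups. The mean of 10 endothelial markers, Cldn5 among them, differed by -0.10, 0.01 and 0.17 in the 3 cages. Cldn16 differed by -0.17 at a dim level of 5.18, and Cldn12 by 0.14 from 10.74 in wt pools.

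Proteins that sit beside the claudins in the membrane and on the scaffold did not pass either. Of 12 further membrane proteins 4 were higher and 8 lower (median -0.076). Crb3, an apical polarity protein, differed by -0.15 (SE 0.08, adjusted p = 0.795) without overlap between the groups, and Bves by -0.18. Lsr, the tricellular junction protein angulin-1, differed by -0.14 (SE 0.10, adjusted p = 0.816). Its groups were only just apart, as both pools of cage 2 read 11.41, and its difference lay mainly in cage 1 (-0.39, against -0.02 in cage 3). Of 15 scaffold and polarity proteins 7 were higher and 8 lower (median -0.001). Prkcz, an atypical protein kinase C of the polarity complex, differed by -0.12 without overlap between the groups. Its partners Pard6g and Pard6b differed by 0.11 and 0.15.

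Adherens junctions and desmosomes lie below the tight junction and hold the cells together. Of 12 adherens junction genes 4 were higher and 8 lower (median -0.01), and 0 passed. Ctnnd1, which encodes p120-catenin, differed by -0.23 (SE 0.15), with 10.98, 10.91 and 10.37 in wt pools and 10.57, 10.51 and 10.49 in duoxa-/- pools, so that cage 3 did not share the gap of the other cages. Plekha7 differed by -0.09 and Nectin1 by 0.12. Of 8 desmosome genes 4 were higher and 4 lower (median -0.03), and 0 passed. Jup, which encodes plakoglobin, differed by -0.28 (SE 0.14, adjusted p = 0.794), the plakin Evpl by -0.24 and the plakophilin Pkp2 by 0.18.

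Among 23 regulators of claudins and the junction 11 were higher and 12 lower (median -0.009), and 0 passed. Snai2, a repressor of epithelial junction genes, read 7.94, 7.98 and 7.79 in wt pools and 8.20, 8.34 and 8.07 in duoxa-/- pools. The difference was 0.30 in limma (SE 0.10, unadjusted p = 0.0136, adjusted p = 0.794), with no overlap. The Snai2 probe set, 1447643_x_at, is of a kind that can read more than 1 transcript. Spint1 and Prss8, an inhibitor and a member of the membrane serine proteases that act near the junction, differed by -0.17 and -0.18. The groups of Spint1 did not overlap either. Of 8 genes of transcellular ion and glucose transport 4 were higher and 4 lower (median -0.003), and 0 passed. Slc9a3, the sodium-proton exchanger of the brush border, differed by 0.36 (SE 0.31), and its highest values were in the pools of cage 2, at 9.35 in wt and 9.67 in duoxa-/-. Kcnn4, a potassium channel, differed by 0.25 (SE 0.12) with no overlap between the groups, and Kcnq1, another, by -0.16. Non-overlap in either direction occurred in 3 of the 23 regulators, 2 of the 8 transport genes and 11.5% of all genes.

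**Figure D4:**
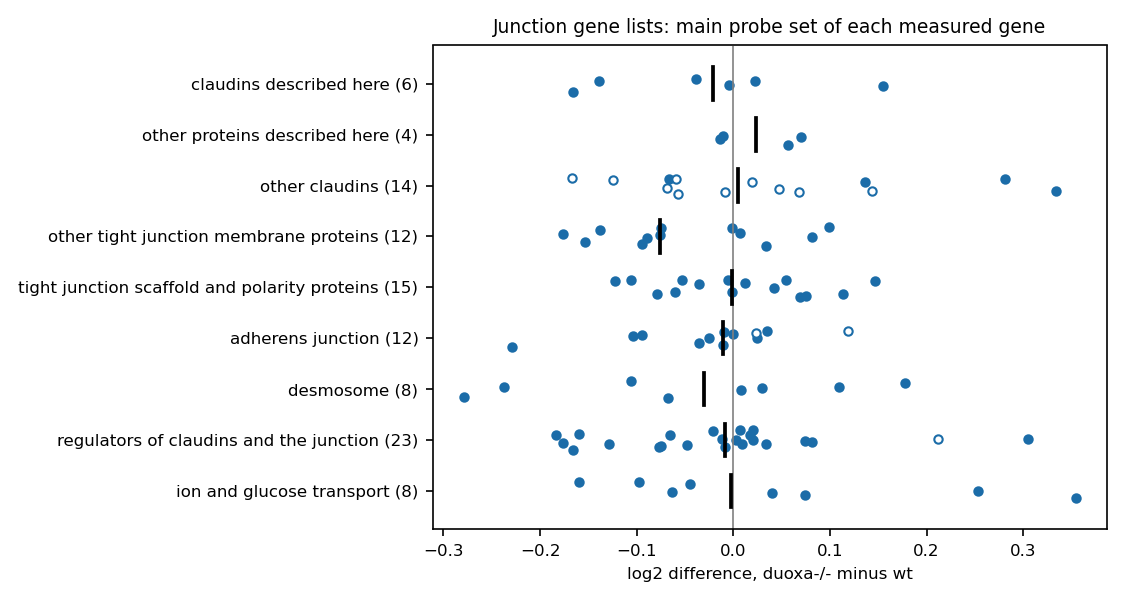
Log2 difference, duoxa-/- minus wt (horizontal axis), of the main probe set of each measured gene in the junction lists, with the number of genes in parentheses and the list median as a black bar. Filled points have a mean at or above the median of all probe sets and open points lie below it, and the list medians lie between -0.076 and 0.023.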

How the data were processed

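Each of the 6 single-colour Affymetrix arrays measured 1 pool of ileal RNA, labelled with biotin. The deposited values are log2 summaries per probe set that the authors made with RMA in affy, per the submitters' processing notes; their versions and settings are not stated in the labels. RMA equalises the arrays and compresses differences of dim probe sets. Of 45101 rows, 64 controls were left out. Symbols are those of the platform annotation.

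Genotypes were compared with limma 3.58.1 in R 4.3.3 (lmFit, eBayes, two-sided, Benjamini-Hochberg over 45037 probe sets, threshold 0.05) without a cage term, and cages with its moderated F-test. SD is over 3 pools. The genotype p-values set the difference against the spread between pools of a group, which limma moderates over all probe sets. Without a cage term that spread includes differences between litters, and the pairing by cage is not used. The fits were tested on simulated data with changes larger than those of the junction genes. That test does not show whether differences as small as theirs would be found. Python 3.11.15 and pandas 2.3.3 made the tables. By rule the text names all 10 genes, up to 3 genes of smallest p of each list but the cell markers, and the most alike gene of each of the 10. Duoxa2 and Duoxa1 were added as the maturation factors. Cldn8 and Cldn22 were named after their values were seen, to complete a count. So were Ctnnb1, Atp1b1, Jchain and Spint2, for levels near that of Cldn7, and the T cell markers Cd3e, Cd4 and Tcra. The genes and lists were chosen with earlier results of these data known.

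A cage is a litter per the design text, so its number pairs them. Over genes, the 2 pools of 1 cage deviated from their group means with r = -0.18, 0.16 and 0.34 in cages 1, 2 and 3. Pools of different cages had r from -0.44 (wt of cage 2, duoxa-/- of cage 3) to 0.40 (wt of cage 2, duoxa-/- of cage 1). By this measure pools of the same cage were not regularly more alike, and the pairing rests on the labels.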

Additional observations from a re-analysis of the deposited data

How the results depend on the processing

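With cage as a replicate block 0 probe sets passed, and 0 of the 16 of the junction genes, and the block changed no other call. The count over all probe sets was 0 to 1 when any 1 pool was left out (1 without the wt pool of cage 3) and 0 under every other alternative run, and 0 of the junction probe sets passed under any. The median over the 10 genes lay between -0.052 and 0.037. Cldn3, Cldn15 and Ocln kept their direction in all alternatives that gave a value, from -0.188 to -0.102, from -0.238 to -0.095 and from 0.004 to 0.162, as did the dimmer Cldn2 probe set, examined this way after its values were seen, from 0.273 to 0.647. When any 1 pool was left out, the difference ranged from -0.146 to 0.156 for Cldn2, -0.049 to 0.357 for Cldn4, -0.025 to 0.022 for Cldn7, -0.063 to 0.057 for Tjp1, -0.041 to 0.038 for Marveld2 and -0.01 to 0.106 for F11r, each with both signs. Without both pools of cage 2 the sign turned for Cldn4 (-0.071), Cldn7 (0.016), Cldn23 (0.018), Tjp1 (0.042) and Marveld2 (0.032), without those of cage 1 for Cldn2 (-0.053), and without those of cage 3 for Cldn2 (-0.012) and Cldn7 (0.005). Array weights turned Tjp1 (0.007). With all probe sets of a gene averaged, Cldn2 differed by 0.266 and F11r by 0.131, above their ranges with 1 pool left out, and neither passed. The cause of these changes, other than the fewer pools, was not tested. Between cages the count of 1 became 1 to 16 when any 1 pool was left out, 3 with array medians set equal, 3 with array weights and 0 without _s_at, _x_at and _a_at probe sets, none of them of the junction genes. That last alternative left no value for Cldn3 and Tjp1. Dim probe sets were judged by level alone, since no detection calls were used here.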
